A study of Homo sapiens with 4 samples.

Results

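CLDN1, CLDN3, CLDN4, CLDN7, OCLN, TJP1, TJP3 and F11R encode claudins, occludin, the ZO scaffold proteins and a junctional adhesion molecule. They were taken by gene symbol from a table of 15279 named genes, and all 8 had a row. In RefSeq, CLDN3 and CLDN4 lie together on chromosome 7, and the others on separate chromosomes, F11R on 1, CLDN1 on 3, OCLN on 5, TJP1 on 15, CLDN7 on 17 and TJP3 on 19. Expression was measured by RNA-seq in 2 libraries of MDAMB231Br, labelled as a brain metastasis of breast cancer and known as a brain-seeking derivative of MDA-MB-231, and in 2 libraries of MDAMB231, the parental triple-negative breast cancer line. Both lines grew as cultures in DMEM with serum, and no treatment separates them. Each group is a single cell line, so a difference between the groups is a difference between these lines. Nothing in the labels states whether separate cultures gave the paired libraries, so each p-value reflects library-to-library spread alone, and that spread may be technical. The letters A and B only tell the libraries of a line apart.

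Tight junctions seal the space between neighbouring epithelial or endothelial cells. Claudins form the strands and set which ions pass, occludin and the junctional adhesion molecules sit beside them in the membrane, and the ZO proteins tie the strands to actin. In breast cancer, low CLDN3, CLDN4, CLDN7 and E-cadherin define the claudin-low subtype, in which MDA-MB-231 is usually placed, and tight junctions of brain endothelium form a large part of the blood-brain barrier.

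The libraries held 28107820 and 25835225 reads on named genes in MDAMB231Br, against 30771290 and 27554570 in MDAMB231. The mesenchymal marker VIM had 4371 CPM (the read count scaled to library size) in MDAMB231Br and 1528 CPM in MDAMB231, and it rose in the test below (log2 fold change 1.56, limma-trend adjusted p = 0.00473). Of the other basal and mesenchymal markers, CAV1 fell (-1.43, adjusted p = 0.00523), and CD44 (0.88), EGFR (0.96) and AXL (-0.19) did not pass. Of 8 luminal markers, 7 had a row, and they summed to 350 and 296 CPM in MDAMB231Br, against 323 and 305 CPM in MDAMB231. The 6 of them that were tested did not pass, with log2 fold changes from -0.64 for MUC1 to 0.35 for KRT18 and a median of -0.22. The seventh, the estrogen receptor gene ESR1, had 7 and 25 reads in MDAMB231Br, against 0 and 2 reads in MDAMB231. CDH1, encoding E-cadherin, had a mean of 0.413 CPM in MDAMB231Br and 0.158 CPM in MDAMB231. Of 7 endothelial markers, 5 had a row, and their summed level was 31.1 and 32.3 CPM in MDAMB231Br, against 18.7 and 29.7 CPM in MDAMB231. Among these the endothelial cadherin gene CDH5 had 5 and 0 reads in MDAMB231Br and 1 and 4 reads in MDAMB231, while VWF and TEK were not analysed here. Neuron markers (2 of 5 with a row) summed to 14.8 and 26.0 CPM in MDAMB231Br, against 6.27 and 8.27 CPM in MDAMB231, and astrocyte markers (2 of 5) to 4.52 and 6.35 CPM in MDAMB231Br, against 7.83 and 11.6 CPM in MDAMB231. Of the oligodendrocyte markers, 2 of 6 had a row, and MAG had 0 reads in all libraries. The other, MBP, had 139 and 146 CPM in MDAMB231Br, against 88.7 and 95.4 CPM in MDAMB231. MBP did not pass (log2 fold change 0.67, limma-trend adjusted p = 0.0750). The fibroblast marker with a row (1 of 5), COL1A1, had 12.6 and 17.2 CPM in MDAMB231Br, against 3.57 and 2.98 CPM in MDAMB231, and rose (log2 fold change 2.20, limma-trend adjusted p = 0.00419). GAD1 of the neuron list rose as well (1.54, adjusted p = 0.0257), and the 6 markers of microglia and leukocytes were not analysed here. The part of any such cells in the values below was not tested. In bulk libraries, fewer cells with a transcript and less of it per cell cannot be told apart.

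The claudins moved in opposite directions. CLDN1 was 4.59-fold higher in MDAMB231Br, and CLDN4 fell to 0.374 of its MDAMB231 level. F11R was 2.53-fold higher. CLDN3, CLDN7, OCLN and TJP1 did not pass the test, and TJP3 had too few reads to be tested. The test was limma-trend on log2(normalized count + 1), with p-values adjusted by the Benjamini-Hochberg method over 14424 genes and a threshold of 0.05. Across all genes tested, 14.4% passed, 8.61% higher and 5.8% lower in MDAMB231Br. Of the 7 members tested, 3 passed, with 2 higher and 1 lower, and their median log2 fold change was 0.91, against 0.01 over all genes tested. On whole reads recovered from the table, edgeR's quasi-likelihood test called the same number of members, 2 higher and 1 lower, where 15.4% of all genes (2228) passed, 8.96% higher and 6.48% lower. DESeq2 called 3 members higher and 1 lower, where 20.2% of all genes (2910) passed, 11.3% higher and 8.92% lower. In a fit that left out a library, the spread was estimated from the pair of libraries of the other line. A call lost or gained in such a fit therefore does not show that it rested on the library left out. The count of members depended on the libraries: CLDN1 alone passed without MDAMB231 library A and without MDAMB231 library B, when 421 and 429 of all genes passed. Without MDAMB231Br library A or library B, 6 members passed, when 5257 and 3147 of all genes passed.

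**Figure D1:**
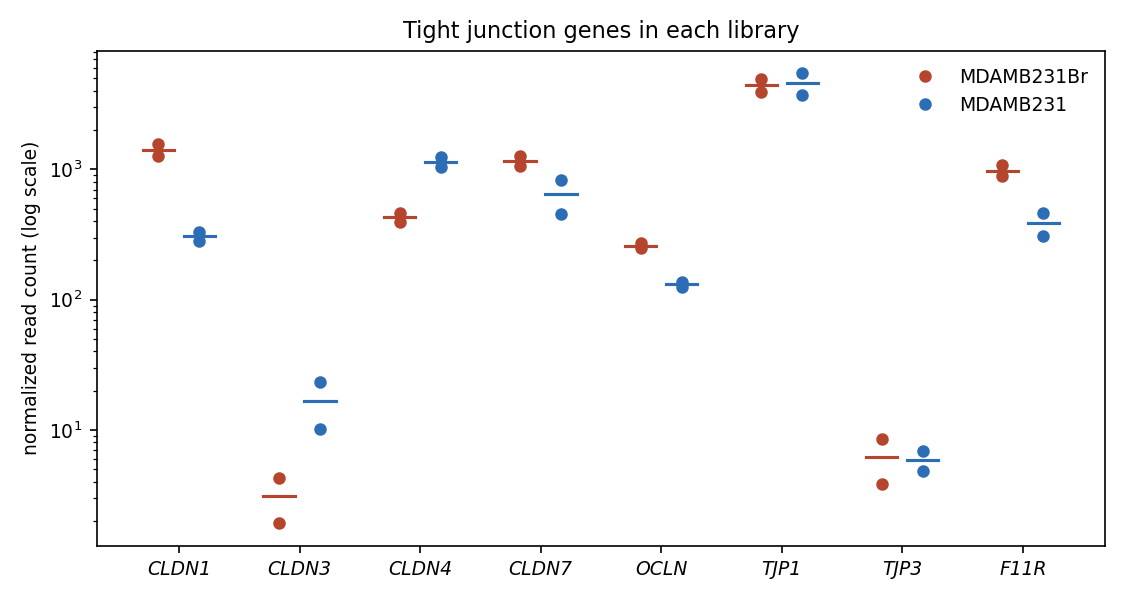
Normalized read count of each tight junction gene in each library (points) with the mean of each line (bars), on a log axis, MDAMB231Br left of MDAMB231. CLDN1 and F11R sit higher in MDAMB231Br, CLDN4 sits lower, and TJP1 and TJP3 overlap between the lines.

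CLDN1, a strand-forming claudin of epithelia and a barrier claudin of skin, had normalized counts of 1573 and 1263 in MDAMB231Br libraries A and B, against 284 and 334 in MDAMB231. Every MDAMB231Br value lay far above both MDAMB231 values. The means were 1418 ± 219 in MDAMB231Br and 309 ± 35.1 in MDAMB231 (SD, n = 2 each), and the log2 fold change was 2.19 ± 0.26 (SE), with an adjusted p of 0.00196 by limma-trend. CLDN1 had the 418th largest increase of the 14424 genes tested. It was called in all 14 fits, including those that left out a library.

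CLDN4, a claudin of simple epithelia and, with CLDN3, a receptor for Clostridium perfringens enterotoxin, had normalized counts of 392 and 465 in MDAMB231Br, against 1049 and 1241 in MDAMB231. Both MDAMB231Br libraries were below both MDAMB231 libraries. The means were 428 ± 51.9 in MDAMB231Br and 1145 ± 136 in MDAMB231 (SD, n = 2 each), with a log2 fold change of -1.42 ± 0.25 (SE) and an adjusted p of 0.00988 by limma-trend. The call was not kept without MDAMB231 library A or without MDAMB231 library B, where the spread came from the MDAMB231Br pair. The log2 fold change stayed between -1.54 and -1.29 in the 4 fits that left out a library.

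CLDN3, a close relative of CLDN4 in sequence and position, had few reads. It had 2 and 4 reads in MDAMB231Br, against 12 and 24 reads in MDAMB231, and the libraries of the lines did not overlap. The ratio of normalized reads, MDAMB231Br over MDAMB231, was 0.185, with an exact binomial 95% interval of 0.0637 to 0.443 that covers counting error only. The log2 fold change was -2.08 ± 0.71 (SE), and it did not pass (limma-trend adjusted p = 0.0877). On the CPM scale, where 1 was added to much smaller values, it was -0.54. CLDN3 passed the filter on low reads only through the MDAMB231 libraries, where it was higher, so its fold change is descriptive. The log2 fold change lay between -2.63 and -1.52 in the fits that left out a library. In RefSeq, no protein-coding gene lies between CLDN3 and CLDN4 on chromosome 7.

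CLDN7, a claudin of epithelial lateral membranes that binds EpCAM, had normalized counts of 1263 and 1067 in MDAMB231Br, against 455 and 836 in MDAMB231. The lines did not overlap, but MDAMB231 library B lay much nearer to MDAMB231Br than library A did. The log2 fold change was 0.91 ± 0.32 (SE), with a 95% interval of 0.17 to 1.65 before adjustment, and it did not pass (limma-trend adjusted p = 0.0957). It was 0.47 without MDAMB231 library A and 1.35 without MDAMB231 library B, and CLDN7 was called without MDAMB231Br library A (adjusted p = 0.0330) or without MDAMB231Br library B (adjusted p = 0.00655). Exons of CLDN7 overlap ELP5 on the opposite strand. ELP5 had a log2 fold change of -0.09, and without a stated strand setting the reads of the overlap cannot be told apart.

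The promoters of CLDN1, CLDN4 and CLDN7 are shown because they are the member claudins with the most reads and the passing ones moved in opposite directions. RefSeq windows were found for 7 of the 8 members, and each printed sequence is the 250 bases before a RefSeq start, in GRCh38.p14 coordinates. CLDN7 has 2 such windows, and the one printed lies before the downstream start and was chosen because it holds the motifs. The other, before the outermost start (chr17:7263214-7263463), holds 0 matches of either motif. Capitals mark the E-box CAGGTG or its reverse complement CACCTG, which factors of the SNAI and ZEB families bind, and the GC box GGGCGG or CCGCCC. No match of either motif overlapped a match of the other.
CLDN1, minus strand, chr3:190322447-190322696: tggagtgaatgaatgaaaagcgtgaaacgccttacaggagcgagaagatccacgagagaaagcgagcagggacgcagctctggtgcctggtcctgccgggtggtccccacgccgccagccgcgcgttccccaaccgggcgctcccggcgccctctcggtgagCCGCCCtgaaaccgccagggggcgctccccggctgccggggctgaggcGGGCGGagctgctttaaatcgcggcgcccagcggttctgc
CLDN4, plus strand, chr7:73830746-73830995: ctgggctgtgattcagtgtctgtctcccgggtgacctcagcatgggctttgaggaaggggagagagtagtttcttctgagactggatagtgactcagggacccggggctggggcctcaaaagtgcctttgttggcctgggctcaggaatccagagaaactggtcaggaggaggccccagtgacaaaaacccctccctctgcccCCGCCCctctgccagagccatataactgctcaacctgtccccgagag
CLDN7, minus strand, chr17:7262479-7262728: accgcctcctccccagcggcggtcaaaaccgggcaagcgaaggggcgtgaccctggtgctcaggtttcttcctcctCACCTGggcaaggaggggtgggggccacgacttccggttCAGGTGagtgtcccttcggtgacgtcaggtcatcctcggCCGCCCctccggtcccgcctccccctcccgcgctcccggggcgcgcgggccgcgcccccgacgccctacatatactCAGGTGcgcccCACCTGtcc
The printed CLDN7 window held 4 E-box matches and 1 GC box match. The CLDN1 window held 2 GC box matches and the CLDN4 window held 1, and the letters of the E-box are not in these windows. Over all 13 windows of the members, 5 held an E-box match and 10 a GC box match. Among 35116 RefSeq windows of the same length, 17.5% held the E-box and 42.6% the GC box on either strand. A match describes the letters and not binding.

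F11R, the junctional adhesion molecule A that helps to build tight junctions in epithelium, endothelium and platelets, had normalized counts of 886 and 1076 in MDAMB231Br, against 311 and 464 in MDAMB231. The lowest MDAMB231Br value was well above the highest MDAMB231 value. The means were 981 ± 134 in MDAMB231Br and 387 ± 108 in MDAMB231 (SD, n = 2 each), and the log2 fold change was 1.36 ± 0.29 (SE), with an adjusted p of 0.0194 by limma-trend. F11R was not called without MDAMB231 library A (adjusted p = 0.169, log2 fold change 1.07) or without MDAMB231 library B (adjusted p = 0.0652, log2 fold change 1.65).

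OCLN, encoding occludin, a membrane protein found in the strands beside claudins, had normalized counts of 248 and 270 in MDAMB231Br, against 125 and 137 in MDAMB231. Replicates lay close together and the lines did not overlap. The means were 259 ± 15.9 in MDAMB231Br and 131 ± 8.03 in MDAMB231 (SD, n = 2 each), a 1.98-fold difference. The log2 fold change of 0.98 ± 0.29 (SE) did not pass with limma-trend (adjusted p = 0.0589) or by quasi-likelihood in edgeR (adjusted p = 0.0608), while DESeq2 called it (adjusted p = 0.0477). It was called without MDAMB231Br library A (adjusted p = 0.0142) or library B (adjusted p = 0.0499). OCLN has a partial copy, OCLNP1, with 17 and 6 reads in MDAMB231Br and 6 and 6 reads in MDAMB231, so OCLN reads may in part have been assigned to the copy or dropped.

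Of the scaffolds, TJP1, encoding ZO-1, which links claudins and occludin to actin, had normalized counts of 3937 and 4923 in MDAMB231Br, against 5482 and 3713 in MDAMB231. The lines overlapped, and each held a higher and a lower library. The log2 fold change was -0.04 ± 0.26 (SE), with a 95% interval of -0.64 to 0.57 and an adjusted p of 0.942 by limma-trend. Its sign turned to 0.13 without MDAMB231Br library A and to 0.25 without MDAMB231 library A. TJP3, encoding ZO-3, an epithelial scaffold, had 4 and 8 reads in MDAMB231Br, against 8 and 5 reads in MDAMB231. The ratio of normalized reads was 1.02, with an exact binomial 95% interval of 0.427 to 2.44. That interval covers counting error only, which alone leaves the ratio uncertain over this range.

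**Figure D2:**
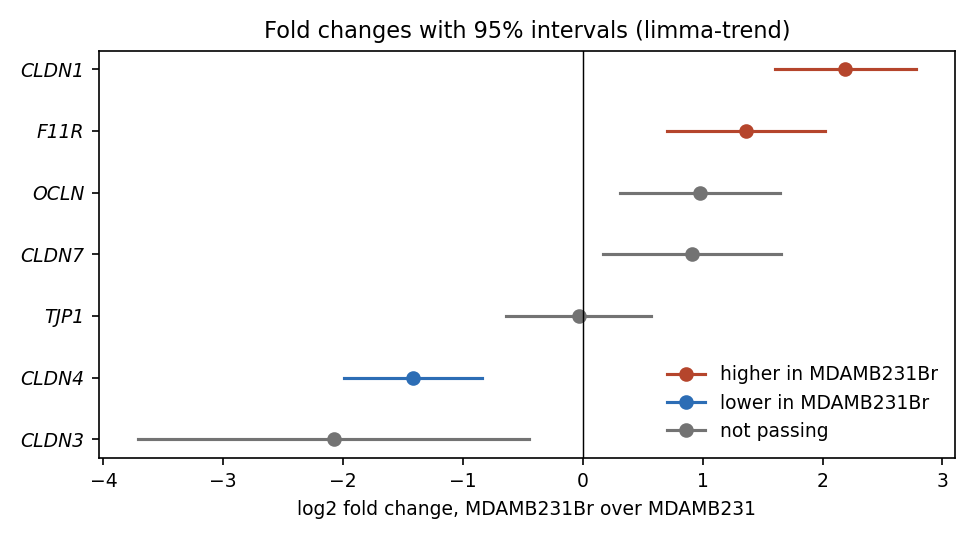
Log2 fold change of MDAMB231Br over MDAMB231 for the 7 tested members (points) with unadjusted 95% intervals from limma-trend (lines), coloured by the call at an adjusted p below 0.05. CLDN1 and F11R are called higher and CLDN4 lower, and the interval of TJP1 spans -0.64 to 0.57.

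The libraries of the lines did not overlap for 6 of the 7 tested members, set beside 61.3% of all tested genes. Of these members, CLDN1, CLDN7, OCLN and F11R were above in MDAMB231Br, as were 31.7% of all genes. CLDN3 and CLDN4 were below, as were 29.7%, and CLDN3 passed the filter on low reads only through MDAMB231.

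Divided by transcript length, the order of the members differed between the lines. In MDAMB231Br, in RPKM (CPM divided by the kilobases of the longest protein-coding transcript), CLDN7 had 22.3 ± 2.87, TJP1 20.5 ± 3.02, F11R 7.46 ± 0.943, CLDN4 3.78 ± 0.421 and OCLN 1.48 ± 0.0759 (SD, n = 2). CLDN1, between TJP1 and F11R, had 16.7 and 13.3 RPKM in the MDAMB231Br libraries. CLDN7 and TJP1 overlapped between libraries, and the remaining neighbours down to OCLN did not. In MDAMB231, TJP1 had 21.9 ± 6.21 RPKM, CLDN7 12.6 ± 5.13, CLDN4 10.4 ± 1.10, CLDN1 3.35 ± 0.338, F11R 3.02 ± 0.807 and OCLN 0.768 ± 0.0373 (SD, n = 2). There, CLDN7 and CLDN4 overlapped, as did CLDN1 and F11R. CLDN3 and TJP3 came last in both lines, with at most 0.684 RPKM in any library. The ranks of CLDN4, CLDN7, TJP1 and F11R and the level of OCLN depended on the transcript chosen. With the shortest principal transcript, OCLN had 5.45 ± 0.280 RPKM in MDAMB231Br and 2.83 ± 0.138 RPKM in MDAMB231 (SD, n = 2 each). It then overlapped F11R in MDAMB231. With the shortest principal transcript of each gene, CLDN4 had 8.60 ± 0.956 RPKM in MDAMB231Br, above F11R but overlapping it, and 23.6 ± 2.50 RPKM in MDAMB231, above TJP1 but overlapping it (SD, n = 2 each).

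The 4 member claudins, summed per kilobase, shifted in their makeup. CLDN1 made up 37.5% and 35.1% of the sum in MDAMB231Br libraries A and B, against 14.1% and 11.3% in MDAMB231. CLDN4 made up 7.82% and 10.8% in MDAMB231Br, against 43.6% and 35.2% in MDAMB231. CLDN7 held the largest share in MDAMB231Br, at 54.5% and 53.7%, against 40.9% and 51.3% in MDAMB231, where CLDN4 exceeded it in library A. This order depended on the length used. For reads without division by length, the largest mean share was that of CLDN1 in MDAMB231Br (46.9%, CLDN7 38.6%) and of CLDN4 in MDAMB231 (54.7%). By the shortest principal transcripts, CLDN4 had the largest mean share in MDAMB231 (50.7%, CLDN7 41.0%). CLDN3 held 0.125% and 0.322% in MDAMB231Br, against 1.39% and 2.16% in MDAMB231. The sum itself was 44.6 and 37.7 RPKM in MDAMB231Br, against 22.02 and 31.7 RPKM in MDAMB231. These shares are given without a test. With the shortest principal transcripts the mean CLDN1 share was 25.5% in MDAMB231Br and 7.21% in MDAMB231. The sum was then 62.8 and 54.4 RPKM in MDAMB231Br, against 39.3 and 55.1 RPKM in MDAMB231, and the lines overlapped.

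**Figure D3:**
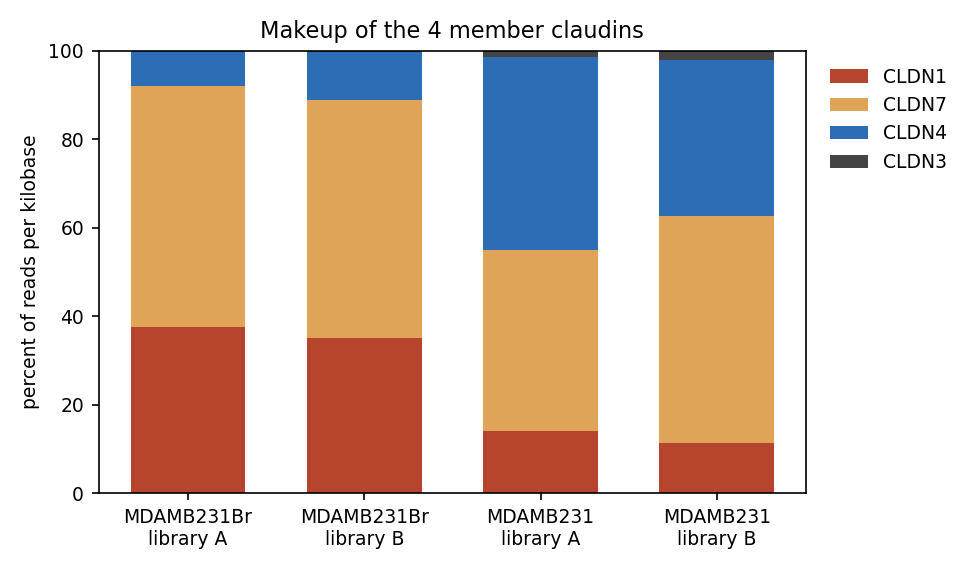
Share of each member claudin in the sum of the 4, in percent of reads per kilobase of the longest protein-coding transcript, for each library. The CLDN1 share is 37.5% and 35.1% in MDAMB231Br and 14.1% and 11.3% in MDAMB231, and the CLDN4 share is 7.82% and 10.8% in MDAMB231Br and 43.6% and 35.2% in MDAMB231.

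Of 19 further claudin genes, 4 had a row and all 4 were tested. CLDN12, a claudin without the usual scaffold-binding tail motif, was the most abundant claudin with a row, per kilobase of the longest transcript, in both lines. It had 33.3 and 49.3 RPKM in MDAMB231Br, against 35.0 and 41.3 RPKM in MDAMB231, and did not pass (log2 fold change 0.13 ± 0.26 SE, limma-trend adjusted p = 0.768). CLDN2, CLDN15 and CLDN23 did not pass either, with log2 fold changes of -0.58, 0.97 and -0.72. The passing count was 0 with limma-trend, edgeR's quasi-likelihood test and DESeq2, and 1 of the 4, CLDN15, had an unadjusted p below 0.05, as had 4590 of all 14424 genes tested. The other 15, among them CLDN5 of brain endothelium, were not analysed here.

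Among other membrane proteins of the junction, 6 of the 8 with a row were tested and 1 passed, beside 14.4% of all genes tested. The passing gene was ESAM, an adhesion molecule of endothelial tight junctions. It had normalized counts of 3608 and 3352 in MDAMB231Br, against 1652 and 1949 in MDAMB231 (log2 fold change 0.95 ± 0.22 SE, limma-trend adjusted p = 0.0278). The median log2 fold change of the 6 was 0.23. ESAM was not called without MDAMB231 library A (adjusted p = 0.213) or library B (adjusted p = 0.159). Of the endothelial markers, TIE1 (2.66) and KDR (3.10) rose and EGFL7 (-3.50) fell on the log2 scale, and their part in the ESAM value was not tested. TIE1 had 5 and 11 reads in MDAMB231 and passed the filter on low reads only through MDAMB231Br, so its fold change is descriptive.

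Of 16 tested plaque and scaffold genes, 2 rose, 1 fell and 13 did not pass, with a median log2 fold change of 0.38. Over all genes tested, 14.4% passed, 8.61% higher and 5.8% lower. AMOT, an angiomotin that binds YAP and junctional scaffolds, had normalized counts of 1289 and 1049 in MDAMB231Br, against 5.97 and 7.76 in MDAMB231 (log2 fold change 7.22 ± 0.35 SE, limma-trend adjusted p = 8.62e-05). AMOT had 7 and 8 reads in MDAMB231 and passed the filter on low reads only through MDAMB231Br, where it was higher. Its fold change is therefore descriptive. SYMPK, symplekin, found at the junction plaque and in the machinery that processes mRNA ends, rose by 1.23 on the log2 scale (adjusted p = 0.0195). CGNL1, paracingulin, which binds ZO proteins, fell to 52.8 and 47.7 in MDAMB231Br, against 148 and 177 normalized counts in MDAMB231 (log2 fold change -1.67, adjusted p = 0.0173). Leaving out MDAMB231 library A or library B ended the calls of SYMPK and CGNL1 (adjusted p from 0.0648 to 0.257), while AMOT was called in each fit that tested it.

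Polarity genes place the junction at the border of the apical and lateral membrane. Among the 16 tested, 1 rose, 3 fell and 12 did not pass, with a median log2 fold change of -0.14. The shares over all genes tested were 8.61% higher and 5.8% lower. PARD6B, an adaptor of the Par complex, had normalized counts of 472 and 466 in MDAMB231Br, against 1295 and 1677 in MDAMB231 (log2 fold change -1.65 ± 0.25 SE, limma-trend adjusted p = 0.00517). PRKCZ, an atypical protein kinase C of the same complex, had 45.1 and 76.3 in MDAMB231Br, against 216 and 204 normalized counts in MDAMB231 (log2 fold change -1.82, adjusted p = 0.0168). PRKCI, the other protein kinase C gene of the list, did not pass (log2 fold change -0.24, limma-trend adjusted p = 0.463). It was more abundant, with a mean of 148 CPM in MDAMB231Br and 181 CPM in MDAMB231, against 2.23 and 7.92 CPM for PRKCZ. PARD3B, a relative of the Par complex scaffold PARD3, rose by 1.40 on the log2 scale (adjusted p = 0.0113), and PARD3 itself did not pass (0.37, adjusted p = 0.284). The third gene that fell was LIN7B, a scaffold that binds PALS1 of the Crumbs complex (-1.86, adjusted p = 0.0462). LIN7B had few reads, 22 and 11 in MDAMB231Br, against 53 and 81 in MDAMB231. Without MDAMB231 library A, PARD6B stayed called while PRKCZ (adjusted p = 0.149), PARD3B (0.0823) and LIN7B (0.152) did not. Without MDAMB231 library B, PARD6B (0.0908), PRKCZ (0.173), PARD3B (0.156) and LIN7B (0.448) were not called.

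**Figure D4:**
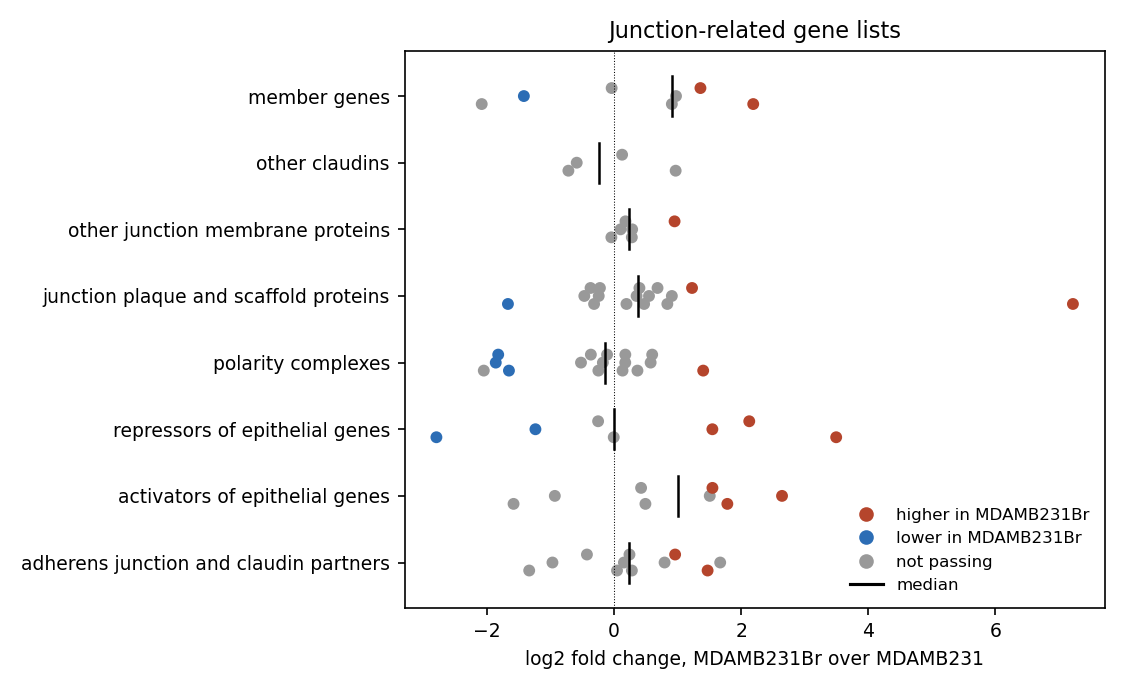
Log2 fold change of MDAMB231Br over MDAMB231 for every tested gene of the junction-related lists described here (points, coloured by the call at an adjusted p below 0.05) with the median of each list (bars). Vertical offsets within a list carry no meaning. AMOT lies far to the right at 7.22, and the members have a median of 0.91. AMOT passed the filter on low reads only through MDAMB231Br, so its position is descriptive.

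Repressors of epithelial genes changed in both directions. Of 7 tested, 3 rose, 2 fell and 2 did not pass, with a median log2 fold change of 0.00. Among all genes tested, 8.61% rose and 5.8% fell. ZEB2, a zinc finger repressor of claudin and E-cadherin genes, had normalized counts of 1393 and 1550 in MDAMB231Br, against 512 and 492 in MDAMB231 (log2 fold change 1.55 ± 0.23 SE, limma-trend adjusted p = 0.00519). SNAI2, the repressor Slug, had 546 and 765 in MDAMB231Br, against 1537 and 1507 normalized counts in MDAMB231 (log2 fold change -1.23 ± 0.26 SE, adjusted p = 0.0186). TCF4, a basic helix-loop-helix factor, rose by 2.13 on the log2 scale (adjusted p = 0.00848). Also passing were the homeobox gene PRRX1 (3.50, adjusted p = 0.0071) and SNAI1, the repressor Snail (-2.79, adjusted p = 0.00803). PRRX1 had 71 and 81 reads in MDAMB231Br, against 4 and 10 reads in MDAMB231. SNAI1 had 8 and 7 reads in MDAMB231Br, against 67 and 61 reads in MDAMB231. Both thus had few reads in the line where they were lower. They passed the filter on low reads only through the line where they were higher, so their fold changes are descriptive. ZEB1, a close relative of ZEB2, had normalized counts of 3640 and 3491 in MDAMB231Br, against 3390 and 3761 in MDAMB231, and did not pass (adjusted p = 0.995). Without MDAMB231 library A, none of the 5 passing genes was called by limma-trend, and without MDAMB231 library B PRRX1 was the gene still called (adjusted p = 0.0193).

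Of 8 tested activators of epithelial genes, 3 rose and 5 did not pass, with a median log2 fold change of 1.00. Among all genes tested, 8.61% rose. EHF, an ETS factor of epithelia, had normalized counts of 8224 and 9351 in MDAMB231Br, against 1194 and 1647 in MDAMB231 (log2 fold change 2.64 ± 0.24 SE, limma-trend adjusted p = 0.000731). TFAP2C, an AP-2 factor of mammary epithelium, had 1876 and 1727 in MDAMB231Br, against 534 and 510 normalized counts in MDAMB231 (log2 fold change 1.78 ± 0.23 SE, adjusted p = 0.00294). The third was its relative TFAP2A (1.55, adjusted p = 0.00823), which was not called without MDAMB231 library A (adjusted p = 0.0793) or library B (adjusted p = 0.110). EHF and TFAP2C were called in every fit. Of the 5 that did not pass, GRHL1 (0.50), KLF4 (1.51) and KLF5 (0.43) had positive log2 fold changes. ESRP2 (-0.93) and ELF3 (-1.58) had negative ones, and ELF3 had at most 20 reads in a library. GRHL2, OVOL1, OVOL2 and ESRP1, factors that drive epithelial programs, had too few reads to be tested.

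Adherens junction genes and claudin partners had 2 of 11 tested genes higher and 9 not passing, with a median log2 fold change of 0.25. The share called higher over all genes tested was 8.61%. JUP, encoding plakoglobin, had normalized counts of 1385 and 1185 in MDAMB231Br, against 418 and 507 in MDAMB231 (log2 fold change 1.47 ± 0.25 SE, limma-trend adjusted p = 0.00825). NECTIN2, an adhesion molecule that binds afadin, rose by 0.96 on the log2 scale (adjusted p = 0.0249). EPCAM, the CLDN7 partner, had normalized counts of 91.2 and 227 in MDAMB231Br, against 333 and 398 in MDAMB231, and did not pass (adjusted p = 0.0756). JUP and NECTIN2 both lost the call without MDAMB231 library A and without library B (adjusted p from 0.0595 to 0.227).

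The genes whose levels were most like CLDN1 over the 4 libraries were NMNAT2, HIST1H1C, LMO2, LINC01792 and PPFIBP2, in that order. Likeness was the Euclidean distance of centred log2(normalized count + 1), over 10885 tested genes with a mean of at least 5 CPM. NMNAT2, at a distance of 0.0240, had normalized counts of 2082 and 1644 in MDAMB231Br, against 378 and 442 in MDAMB231. PPFIBP2, at a distance of 0.169, had 250 and 212 in MDAMB231Br, against 51.2 and 60.1 normalized counts in MDAMB231. With 4 libraries in 2 groups, this likeness rests on the difference between the lines and on the replicate order within each, and histone genes such as HIST1H1C have near-identical copies.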

How the data were processed

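RNA-seq values of 4 libraries, 2 of MDAMB231Br and 2 of MDAMB231, were analysed. Per the submitters' processing notes, the authors used HISAT2, featureCounts and DESeq2 with the build GRCh37, and the sources used here state no versions, annotation, strand setting or filters. The deposited values are a signal per gene and, from the values, reads divided by a size factor of each library. They are whole multiples of a single step in each column, and division by that step recovered whole reads for 100% of values (tolerance 0.01 reads). As the values are normalized, limma-trend on log2(value + 1) was the main test, and count tests on the recovered reads were alternatives. Column headers name the line only. Rows without a gene name (67, with 0.031% to 0.0369% of reads) were left out, and 20 rows whose names had become dates were tested but not named. Genes were filtered with edgeR's filterByExpr on recovered reads (minimum count 10, minimum total 15), leaving 14424. The replicate pairs were not copies of a library (chi-square per degree of freedom 122 in MDAMB231Br and 60.7 in MDAMB231).

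The members and gene lists were chosen with earlier results of these data known. All members were described. From each list, passing genes averaging 5 CPM or above in the higher line were named. At most 2 were named for the strongest rise and 2 for the strongest fall, or the most abundant gene where none passed. CDH1, EPCAM, PARD3, PRKCI, ZEB1, LIN7B, PRRX1, SNAI1, TFAP2A, CLDN2, CLDN15 and CLDN23 were chosen for mention after their values were seen. So were the activators that did not pass or had too few reads. List genes without a row were not analysed here, and 1 further list and 1 scaffold gene are not reported here. Transcript lengths came from GENCODE 29 by gene symbol, and promoter sequences from RefSeq (GRCh38.p14), so gene coordinates of the files' build are not given. Alternatives were edgeR's quasi-likelihood test, DESeq2 and limma-voom on recovered reads, other pseudocounts, filters and scalings, and leaving out each library. Limma-trend was tried on simulated counts, and the alternative tests were not. Software was Python 3.11.15 and R 4.3.3 with DESeq2 1.42.0, edgeR 4.0.16 and limma 3.58.1.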

Additional observations from a re-analysis of the deposited data

How the results depend on the processing

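With all 4 libraries, the calls of CLDN1, CLDN4 and F11R held under edgeR, DESeq2, limma-voom, pseudocounts of 0.5 and 5, CPM and TMM scaling and both filters. OCLN was called by DESeq2 (log2 fold change 0.96). The plaque and scaffold list had 5 passing genes with DESeq2, against 3, and the repressor list 3 under the stricter filter, against 5. That filter asked for 1 CPM in both lines, and PRRX1 and SNAI1 were below it in the lower line. AMOT (0.259 CPM in MDAMB231) and LIN7B (0.604 CPM in MDAMB231Br) were also below it and were not tested under that filter. The mean CLDN1 share of the member claudins was 36.3% in MDAMB231Br and 12.7% in MDAMB231 with the longest transcripts. It was 25.5% in MDAMB231Br and 7.21% in MDAMB231 with the shortest principal transcripts, an alternative chosen after seeing the data, and 46.9% in MDAMB231Br and 14.8% in MDAMB231 for reads without division by length. Leaving out a library moved the count of called genes between 421 and 5257, against 2079, and that of called members between 1 and 6, with the high counts without a MDAMB231Br library and the low ones without a MDAMB231 library. The cause was not tested. Passing genes then ranged from 0 to 1 in other claudins, 0 to 2 in other membrane proteins, 1 to 6 in plaque and scaffold genes, 0 to 7 in polarity genes, 0 to 5 in repressors, 2 to 5 in activators and 0 to 4 in adherens genes. Log2 fold changes ranged from 2.03 to 2.35 for CLDN1, -2.63 to -1.52 for CLDN3, -1.54 to -1.29 for CLDN4, 0.47 to 1.35 for CLDN7, 0.91 to 1.04 for OCLN, 1.07 to 1.65 for F11R and -0.32 to 0.25 for TJP1, whose sign turned (0.13 and 0.25). CLDN12 ranged from -0.16 to 0.42 and turned to -0.16 without MDAMB231Br library B and to -0.00 without MDAMB231 library A. The CLDN1 share ranged from 35.1% to 37.5% in MDAMB231Br and 11.3% to 14.1% in MDAMB231. A single remaining library was assumed to vary like the other line. No paired analysis was possible because the columns carry no replicate numbers. Depth limits CLDN3 and TJP3, with at most 24 reads in a library.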

Other observations

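Of the 6 tested protein-coding genes nearest to the CLDN3 and CLDN4 pair on chromosome 7, 2 fell in MDAMB231Br and 4 did not pass. Over all genes tested, 5.8% fell. ABHD11, an abhydrolase gene, had a log2 fold change of -1.27 (limma-trend adjusted p = 0.0333), and LIMK1, a kinase that phosphorylates cofilin, -1.63 (adjusted p = 0.00396). METTL27 had -1.76 and lay at the threshold (adjusted p = 0.0501), and it passed with edgeR's quasi-likelihood test (adjusted p = 0.0437) and DESeq2 (adjusted p = 0.0447). STX1A, BUD23 and EIF4H, farther out, had 0.12, -0.53 and -0.65 and did not pass (adjusted p = 0.794, 0.152 and 0.0969). ABHD11 was not called without MDAMB231 library A (adjusted p = 0.180) or library B (adjusted p = 0.319), and LIMK1 was not called without library A (adjusted p = 0.0624). The order of genes is that of RefSeq. Of the 3 tested neighbours on each side of CLDN1 on chromosome 3, P3H2 fell (-1.19, adjusted p = 0.0145) and the other 5, TPRG1, TP63, IL1RAP, CCDC50 and FGF12, had log2 fold changes between -0.46 and 0.39 and did not pass. Around F11R on chromosome 1, SLAMF7 (4.73, adjusted p = 0.000718) and ARHGAP30 (4.10, adjusted p = 0.000608) rose and TSTD1 fell (-1.74, adjusted p = 0.0403), while COPA, NCSTN and USF1 did not pass. Around OCLN on chromosome 5, SERF1B fell (-3.34, adjusted p = 0.00359), but it has a near-identical copy and its reads are uncertain. SERF1B is not adjacent to OCLN, and the adjacent MARVELD2 and GTF2H2C did not pass, nor did TAF9, RAD17 and SMN2. Around TJP1 on chromosome 15, KLF13, the farthest tested neighbour on its side, rose (1.02, adjusted p = 0.0338). The adjacent NSMCE3 and FAN1 did not pass, nor did HERC2, APBA2 and MTMR10. The tested neighbours of CLDN7 and TJP3 did not pass. The neighbours were listed after the members' values were seen.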
